A study of Mus musculus with 6 samples.

Results

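Antioxidant enzymes are described here through 10 mRNAs of aged mouse oocytes, *Sod1*, *Sod2*, *Cat*, *Gpx1*, *Gpx4*, *Prdx1*, *Txn1*, *Txnrd1*, *Gclc* and *Gclm*, chosen by gene symbol from the 25899 symbols measured. Fully grown oocytes came from AF (aged female) mice, 58 weeks old and of the CD1 strain by the sample labels (ICR in the study's methods), primed with gonadotropin before collection. Denuded oocytes were cultured for 180 min without the meiotic inhibitor IBMX, so that nuclear envelope breakdown (NEBD) had taken place, and were then held in cycloheximide at 0.1 mg/ml for 10 min. Pools of 200 oocytes were lysed and separated on sucrose gradients into a non-polysomal fraction (NP, free RNA and monosomes) and a polysomal fraction (P, mRNA carrying several ribosomes). RNA-Seq was performed on 3 NP and 3 P libraries, and all 6 share the age, strain, culture and drug treatment given above. Libraries of young females were not analysed here, so the comparison is between fractions and not between ages. Each library is a pool, and the labels do not say whether the replicates came from separate animals, so the p-values measure only the spread between these libraries.

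Superoxide dismutases turn superoxide into hydrogen peroxide, which catalase, glutathione peroxidases and peroxiredoxins then reduce. Glutathione and thioredoxin supply the electrons, and NADPH restores both. The fully grown oocyte is transcriptionally silent and lives on stored mRNA, so which of these mRNAs sit on polysomes bears on which enzymes it can renew during meiosis.

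Levels are given as FPKM, fragments scaled to exon length and to the mapped reads of the library, as deposited. Oocyte identity was checked with 10 oocyte marker genes, all above 0 in every library. None of 7 blood markers was above 0, and 6 of 12 granulosa and cumulus markers (*Amh*, *Foxl2*, *Fshr*, *Inhba*, *Has2* and *Hsd3b1*) were listed at 0 in all 6 libraries. The other 6 granulosa and cumulus markers were above 0 in at least 1 library, led by *Cyp19a1* at 7.15, 22.5 and 104 FPKM in NP and 15.4, 0 and 0 FPKM in P. The recovered sequencing depth differed by 110.5-fold between libraries, from 163552 reads in P replicate 1 to 18072699 in NP replicate 2, so a value of 0 in P replicate 1 carries little information.

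Of these 10 mRNAs, *Gpx4* had the highest level in the NP fraction and *Prdx1* in the P fraction. *Gpx4* was the only 1 of the 9 enzymes tested that was called different between the fractions, with a lower level in P. Of all genes tested, 1.8% were called lower. The call of *Gpx4* held in 5 of 16 alternative settings. *Prdx1* and *Gpx1* were the 2 enzymes with a ratio of P over NP above 0 on the log2 scale, neither past the threshold, and *Cat* was not detected. Summed over the 10 enzymes, the FPKM made up 0.180%, 0.286% and 0.40% of all FPKM in NP replicates 1, 2 and 3, and 0.231%, 0.188% and 0.305% in P replicates 1, 2 and 3. These sums overlapped between the fractions, whereas the shares of *Gpx4* and *Prdx1* within them did not. *Gpx4* supplied 65.2%, 73.8% and 54.6% of the sum in NP and 35.1%, 7.45% and 20.8% in P. *Prdx1* supplied 9.70%, 12.1% and 26.9% in NP and 53.2%, 64.2% and 50.2% in P. Every NP library thus held more *Gpx4* than *Prdx1*, and every P library held more *Prdx1* than *Gpx4*.

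**Figure D1:**
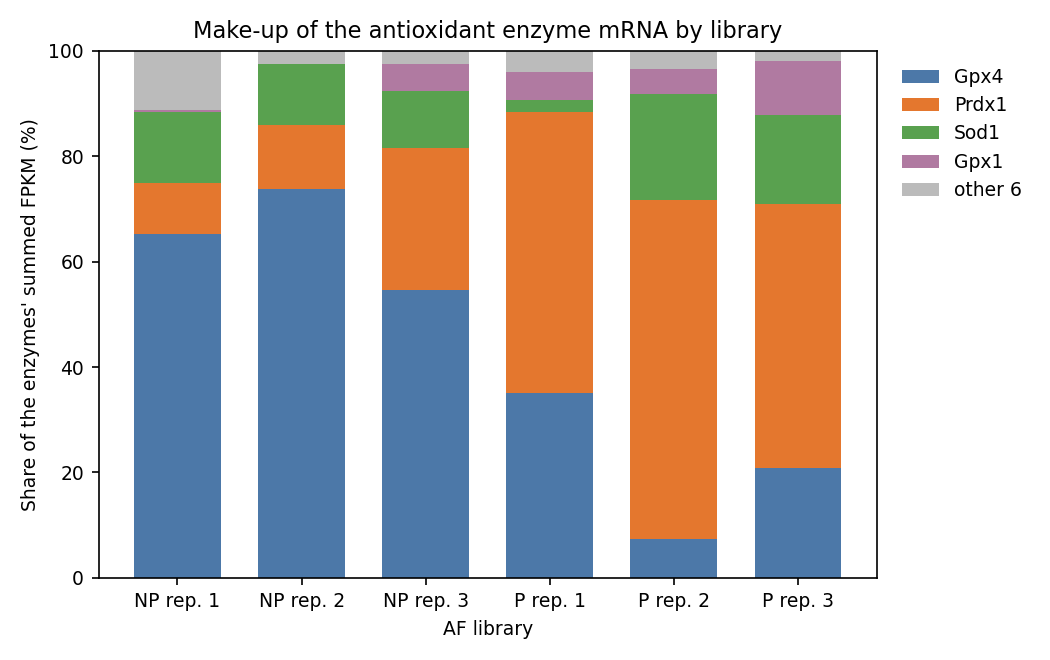
Stacked bars give shares (%) of the summed FPKM of the 10 antioxidant enzymes in each AF library (NP and P, replicates 1 to 3). Blocks are *Gpx4*, *Prdx1*, *Sod1*, *Gpx1* and the other enzymes together. *Gpx4* is the largest block in all 3 NP bars, at 54.6% to 73.8%, and *Prdx1* is the largest in all 3 P bars, at 50.2% to 64.2%.

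In the order of mean levels in NP, *Gpx4* came first, followed by *Prdx1*, *Sod1*, *Gpx1*, *Gclc*, *Txn1*, *Sod2*, *Txnrd1*, *Gclm* and *Cat*. The libraries of *Gpx4* and *Prdx1* did not overlap, nor did those of *Sod1* and *Gpx1* or of *Gclm* and *Cat*. All other neighbours in this order overlapped. In P the order was *Prdx1*, *Gpx4*, *Sod1*, *Gpx1*, *Txnrd1*, *Txn1*, *Gclc*, *Sod2*, *Gclm* and *Cat*. Of the neighbours in this order, only *Prdx1* and *Gpx4* were separated from each other over all libraries. The 4 leading genes were the same in both fractions, but the place of *Gpx1* in NP rests on NP replicate 3, without which its NP mean fell from 43.3 to 2.59 FPKM, below those of *Gclc*, *Txn1*, *Sod2*, *Txnrd1* and *Gclm*. Among all symbols, *Gpx4* stood between the 99.6th and 99.8th percentile in NP and between the 94.5th and 99.3rd in P, and *Prdx1* between the 95.6th and 99.3rd in NP and between the 99.5th and 99.7th in P.

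**Figure D2:**
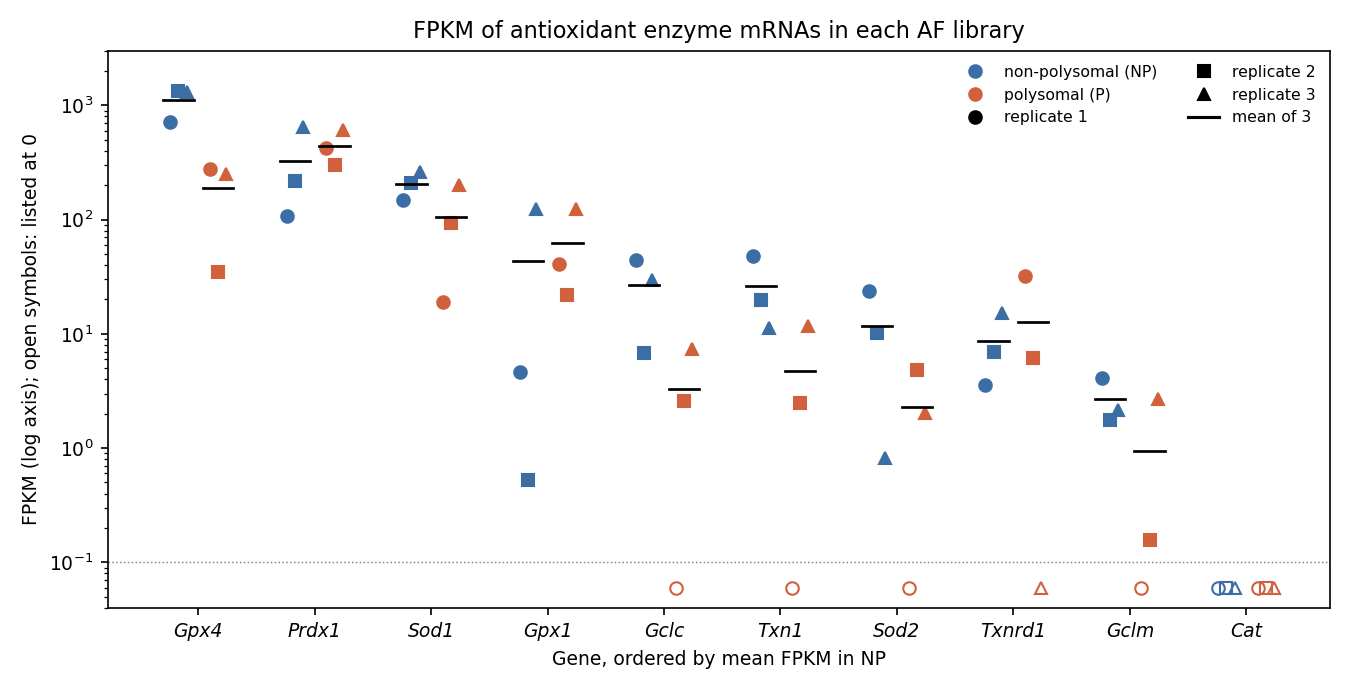
FPKM (log axis) of each enzyme in each library, with NP in blue, P in orange, a symbol for each replicate and a bar at the mean of 3; open symbols under the dotted line are values listed at 0. *Gpx4* is the only gene with all 3 P points below all 3 NP points, and *Cat* is at 0 throughout.

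The fractions were compared with limma on log2(FPKM + 1) for the 10578 genes whose mean FPKM in NP or in P exceeded 1, at a Benjamini-Hochberg adjusted p of 0.1. A log2 ratio is P over NP on that scale, and it understates the change of low genes. The distribution was shifted to below 0, with a median log2 ratio of -1.03, and 80.1% of the genes had a ratio below 0. FPKM is relative to the mapped reads of a library, so less of an mRNA on polysomes and more of other RNA in the same library cannot be told apart. The FPKM of all genes summed to 611904, 633110 and 597261 in NP and to 341539, 246182 and 393876 in P. With the libraries scaled to a common FPKM sum, the median log2 ratio was -0.50. Of all genes tested, 1.8% were called lower in P and 0.0189% higher. Among the enzymes, 1 of the 9 tested was called lower and 0 higher. With 9 genes, that count is small beside any background, and *Gpx4* is therefore described by its own values. By unadjusted limma p, 3 enzymes (*Gpx4*, *Gclc* and *Txn1*) lay below 0.05, against 15.8% of all genes. The median log2 ratio of the 9 enzymes was -1.48, 7 had a ratio below 0, and 6 lay below the median of all genes. All 3 P libraries lay below all 3 NP libraries for 1 of the 9 enzymes and for 23.2% of all genes, and above them for 0 of the enzymes and for 0.633% of all genes. An exact permutation test on 3 against 3 libraries cannot give a p under 0.1.

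**Figure D3:**
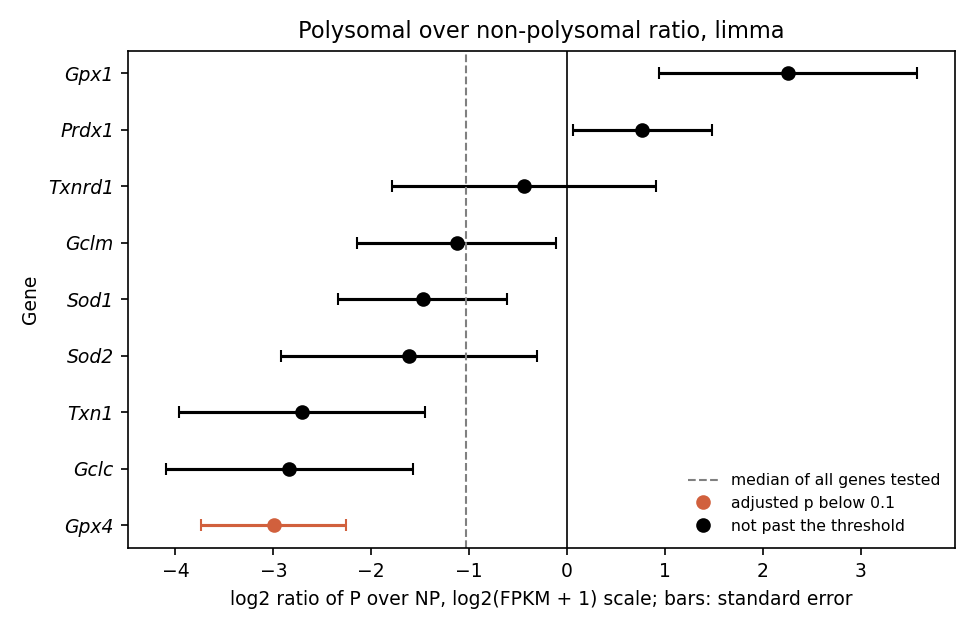
Log2 ratio of P over NP for the 9 enzymes tested, with its standard error from limma (n = 3 and 3); the dashed line is the median of all genes tested, -1.03. *Gpx4*, at -3.00, is the only enzyme past the adjusted threshold, and *Prdx1* (0.77) and *Gpx1* (2.26) lie right of 0.

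*Sod1* encodes the copper and zinc superoxide dismutase of the cytosol and lies on chromosome 16 (90220742 to 90226322, plus strand, GRCm38, as are all positions here). It was at 149, 210 and 258 FPKM in NP and at 18.9, 93.6 and 202 FPKM in P. The highest P library lay within the NP range, and the P libraries spread over 10.7-fold against 1.74-fold in NP. The mean was 206 ± 54.9 in NP and 105 ± 92.0 in P (SD, n = 3). The log2 ratio of -1.48 (SE 0.87) did not pass the threshold (limma adjusted p = 0.402), and without P replicate 1 it was -0.54. In that library the value rests on 2 recovered reads.

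*Sod2*, on chromosome 17 (13007839 to 13018119, plus strand), encodes the manganese superoxide dismutase of mitochondria. Its level was far below that of *Sod1*, with 23.9, 10.2 and 0.819 FPKM in NP and 0, 4.81 and 2.03 FPKM in P. NP replicate 3 lay below P replicates 2 and 3, so the groups overlapped. The log2 ratio was -1.62 (SE 1.31, limma adjusted p = 0.512), and -0.80 without NP replicate 1 or -0.93 without P replicate 1. Neither superoxide dismutase therefore differed between the fractions beyond the spread of the libraries.

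*Cat* encodes catalase, the peroxisomal enzyme that splits hydrogen peroxide without a reducing partner. It was listed at 0 FPKM in all 6 libraries (chromosome 2, 103453849 to 103485160, minus strand). For its annotated transcript of 2613 bases, a count of 3 reads corresponds to 0.0635 FPKM in NP replicate 2, the deepest library, and to 7.02 FPKM in P replicate 1, the shallowest. In the deepest library the limit is thus below the lowest *Gpx1* value, whereas in P replicate 1 a level like that of *Sod2* in the other P libraries could have gone unseen. *Cat* could not be tested.

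*Gpx1*, *Gpx4* and *Txnrd1* encode selenoproteins, enzymes whose catalytic selenocysteine is inserted at a TGA codon that would otherwise end translation. The codon is shown because these are the 3 enzymes whose translation needs this step, and *Gpx4* and *Gpx1* lay at opposite ends of the ratios measured. Each window is sequence of the GENCODE M21 transcript on the plus strand, written 5′ to 3′ with the TGA in capitals. The windows of *Gpx1* and *Gpx4* are coding, and that of *Txnrd1* runs past the stop codon into the 3′ UTR. The TGA lies at codon 47 in exon 1 of *Gpx1* (chr9:108339439-108339465) and at codon 73 in exon 3 of *Gpx4* (chr10:80054725-80054751). In *Txnrd1* the TGA lies at codon 498 of 499 in exon 14 (chr10:82896025-82896051).
Gpx1: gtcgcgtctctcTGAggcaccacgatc
Gpx4: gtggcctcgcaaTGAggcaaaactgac
Txnrd1: cagtctggctgcTGAggttaagcccca
In both peroxidases the codon lies well inside the coding sequence, and in *Txnrd1* it is the last but one before the stop.

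*Gpx4* encodes the glutathione peroxidase that reduces lipid hydroperoxides within membranes and protects against ferroptosis (chromosome 10, 80047166 to 80056439, plus strand). Its level in NP was 719, 1336 and 1303 FPKM, and in P it was 277, 34.5 and 249 FPKM. All P libraries lay below all NP libraries, and P replicate 2 was the lowest of the 6. From recovered reads, the P values rest on 43, 38 and 370 reads. The means were 1119 ± 347 in NP and 187 ± 133 in P (SD, n = 3). *Gpx4* was 7.98-fold lower in P, a log2 ratio of -3.00 (SE 0.74, 95% interval -4.53 to -1.46, limma adjusted p = 0.0592), or -1.97 relative to the median of all genes. Of all genes tested, 6.62% had a lower ratio.

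The call of *Gpx4* held in 5 of 16 alternatives, while its log2 ratio stayed below 0 in all of them. Without NP replicate 1, 2 or 3 the log2 ratio was -3.29, -2.84 or -2.86 with an adjusted p of 0.351, 0.331 or 0.183. Leaving out P replicate 2 gave -2.03 with an adjusted p of 0.126, and leaving out P replicate 1 or 3 gave -3.52 or -3.44 with an adjusted p of 0.0207 or 0.0222. Under 3 rescalings of the libraries that moved the median of all genes to between -0.50 and 0.0027, the ratio of *Gpx4* was between -2.10 and -2.0 and no longer past the threshold.

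*Gpx1* encodes the cytosolic glutathione peroxidase that reduces hydrogen peroxide (chromosome 9, 108339080 to 108340338, plus strand). It was at 4.66, 0.531 and 125 FPKM in NP and at 41.0, 21.9 and 123 FPKM in P. NP replicate 3 held 96.0% of the NP sum and lay as high as the highest P library, while the other NP libraries lay below every P library. From recovered reads, the NP values rest on 6, 10 and 1622 reads and the P values on 7, 27 and 205. In P replicate 1 the 3-read limit was 17.1 FPKM. The log2 ratio of 2.26 (SE 1.32, 95% interval -0.47 to 4.99) did not pass the threshold (limma adjusted p = 0.40). Without NP replicate 3 it was 4.07 with an adjusted p of 0.165, and without NP replicate 2 it was 0.89. Granulosa and cumulus markers, of which 12 were listed, summed to 11.2, 38.7 and 131 FPKM in NP and to 16.5, 6.07 and 1.18 FPKM in P. The NP library with high *Gpx1* was also the one with the highest marker sum, whereas P replicate 3 held nearly the same *Gpx1* level with the lowest marker sum. Their part in the *Gpx1* values was not tested.

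GENCODE M21 annotates a selenocysteine codon in 24 genes, 22 of which were matched in the table, and 14 were tested. *Gpx4* was the only one called, against 1.8% of all genes called lower. A log2 ratio below 0 was found for 10 and above 0 for 4, against 80.1% of all genes below 0, and their median was -0.60 against -1.03. *Txnrd1*, the remaining selenoprotein among the 10 enzymes, is described with the thioredoxin system.

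*Prdx1* encodes a cytosolic peroxiredoxin, which reduces peroxides through a reactive cysteine and is recharged by thioredoxin (chromosome 4, 116685544 to 116700822, plus strand). Its level was 107, 219 and 641 FPKM in NP and 419, 297 and 603 FPKM in P. The highest and the lowest values were both in NP, so the P range lay inside the NP range. The NP values rose in the order of the granulosa and cumulus marker sums, 11.2, 38.7 and 131 FPKM. Those of *Sod1* and *Txnrd1* did so too, those of *Sod2* and *Txn1* fell, and the others did neither. In P, *Prdx1* did not follow the sums, 16.5, 6.07 and 1.18 FPKM. The part of such cells in the *Prdx1* values was not tested. The means were 322 ± 282 in NP and 440 ± 154 in P (SD, n = 3). The log2 ratio was 0.77 (SE 0.71, 95% interval -0.70 to 2.24, limma adjusted p = 0.558), and 93.0% of all genes had a lower ratio. Relative to the median of all genes it was 1.80. Under every alternative setting and with each library left out, the ratio of *Prdx1* stayed between 0.17 and 1.85 and that of *Gpx1* between 0.89 and 4.07, all above 0.

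*Prdx2*, the close relative of *Prdx1* and no member of the 10, was the most abundant gene of all the redox lists in NP. It was at 6690, 7427 and 5788 FPKM in NP and at 536, 381 and 1099 FPKM in P. All P libraries were far below all NP libraries, and *Prdx2* was 10.8-fold lower in P, a log2 ratio of -3.44 (SE 0.47, limma adjusted p = 0.000498). The call held in 10 of 16 alternatives, with a log2 ratio between -3.87 and -2.44 and an adjusted p between 7.42e-05 and 0.480. It was lost without NP replicate 1 (log2 ratio -3.43, adjusted p = 0.111), without NP replicate 3 (-3.53, 0.165), with no filter (0.263), with no trend (0.127), after median-of-ratios rescaling (-2.44, 0.480) and after quantile normalization (-2.45, 0.182). The log2 ratio of *Prdx2* lay below 0 and that of *Prdx1* above 0, and only the former passed the threshold.

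Ratios between 2 mRNAs of the same library do not depend on how libraries are scaled, and those to *Prdx1* were chosen after the values had been seen. *Gpx4* over *Prdx1* was 6.72, 6.09 and 2.03 in NP and 0.661, 0.116 and 0.414 in P. *Prdx2* over *Prdx1* was 62.5, 33.9 and 9.03 in NP and 1.28, 1.28 and 1.82 in P. *Sod1* over *Prdx1* was 1.39, 0.958 and 0.403 in NP and 0.0451, 0.315 and 0.335 in P. In each case all P libraries lay below all NP libraries, by 13.8-fold, 18.6-fold and 4.84-fold between the geometric means. Single libraries set much of these sizes. *Gpx4* over *Prdx1* differed by 8.35-fold without P replicate 2 and by 20.2-fold without NP replicate 3, and *Prdx2* over *Prdx1* by 12.1-fold without NP replicate 1 and by 32.0-fold without NP replicate 3. *Sod1* over *Prdx1* differed by 2.50-fold without P replicate 1, where *Sod1* rests on 2 recovered reads. These ratios are a description with no test, and do not tell which gene of a pair moved.

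*Txn1* encodes thioredoxin, which passes electrons to peroxiredoxins (chromosome 4, 57943373 to 57956411, minus strand). It was at 47.7, 19.7 and 11.3 FPKM in NP and at 0, 2.50 and 11.7 FPKM in P. P replicate 3 lay slightly above NP replicate 3, so the groups overlapped, and in P replicate 1 the 3-read limit was 17.5 FPKM. From recovered reads, the P values rest on 0, 3 and 19 reads. The log2 ratio was -2.71 (SE 1.26, limma adjusted p = 0.30, unadjusted p = 0.0420), and -1.80 without P replicate 1.

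*Txnrd1* encodes the cytosolic thioredoxin reductase, which restores thioredoxin with NADPH (chromosome 10, 82859206 to 82897724, plus strand). Its level was 3.55, 6.91 and 15.3 FPKM in NP and 32.2, 6.15 and 0 FPKM in P. The P libraries spanned the whole NP range, with the highest and the lowest value of all 6. The log2 ratio of -0.44 (SE 1.35, limma adjusted p = 0.883) had no stable sign, being -1.65 without P replicate 1, 0.88 without P replicate 3, 0.05 without NP replicate 3, and above 0 under all 3 rescalings. No direction can be given for *Txnrd1* from these libraries.

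*Gclc* and *Gclm* encode the catalytic and the modifier subunit of glutamate-cysteine ligase, the rate-limiting enzyme of glutathione synthesis. *Gclc* lies on the plus strand of chromosome 9 (77754535 to 77794485). Its NP libraries held 44.4, 6.81 and 29.5 FPKM and its P libraries 0, 2.56 and 7.35 FPKM. NP replicate 2 lay below P replicate 3, and the other NP libraries lay above every P library. Its log2 ratio was -2.84 (SE 1.26, limma adjusted p = 0.285, unadjusted p = 0.0347), the lowest among the enzymes after *Gpx4*, and -2.02 without P replicate 1, whose 3-read limit was 5.36 FPKM.

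*Gclm* lies on the plus strand of chromosome 3 (122245557 to 122269984). Its NP libraries held 4.08, 1.75 and 2.17 FPKM and its P libraries 0, 0.158 and 2.68 FPKM. P replicate 3 lay above NP replicates 2 and 3, so the groups overlapped, and the P replicate 2 value is that of 1 recovered read. The log2 ratio was -1.13 (SE 1.02, limma adjusted p = 0.550), close to the median of all genes, and it was 0.28 after quantile normalization. An antisense gene, *Gm17494*, shares 296 of the 6291 exonic bases of *Gclm*, and the library kit does not keep the strand. Another gene, *Gm6061*, on the strand of *Gclm*, shares 244 of these bases and had no row of its own. *Gclc* exceeded *Gclm* in every library but P replicate 1, where both were listed at 0, so the subunit mRNAs were not at equal levels per length.

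**Figure D4:**
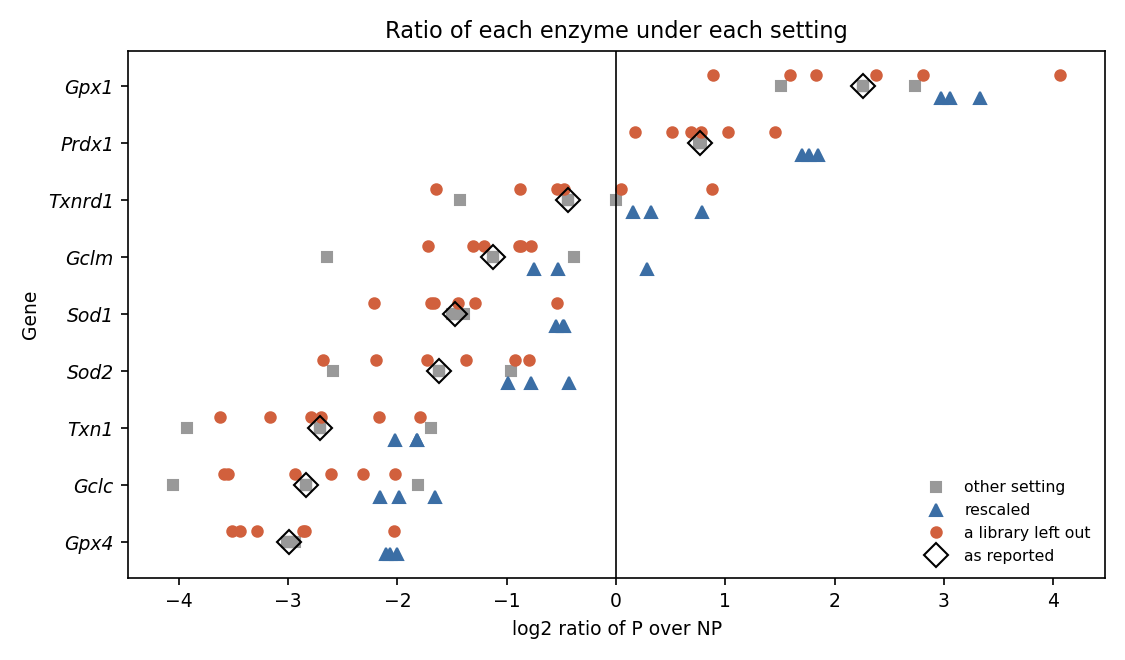
Log2 ratio of P over NP of the 9 enzymes as reported (open diamond), with each library left out (orange), after rescaling the libraries (blue) and under the other settings (grey). *Gpx4*, *Gclc*, *Txn1*, *Sod2* and *Sod1* stay left of 0 and *Prdx1* and *Gpx1* right of 0 in all of them, while *Txnrd1* (-1.65 to 0.88) and *Gclm* (-2.65 to 0.28) cross it.

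The wider redox network was read from lists of 85 further genes, of which 13 were listed at 0 in all libraries and 60 were tested. In P, 3 of these 60 were called lower and 0 higher, against 1.8% and 0.0189% of all genes. A log2 ratio below 0 was found for 53 and above 0 for 7, against 80.1% of all genes below 0, and the median was -1.39 against -1.03. Besides *Prdx2*, the genes called were *G6pdx*, which encodes the glucose-6-phosphate dehydrogenase that makes NADPH, and the glutathione S-transferase gene *Gstt2*. *G6pdx* was at 874, 790 and 911 FPKM in NP and at 137, 221 and 149 FPKM in P, a log2 ratio of -2.37 (SE 0.61, limma adjusted p = 0.0679). *Gstt2* was at 70.2, 52.3 and 70.9 FPKM in NP and at 4.46, 5.12 and 0 FPKM in P, a log2 ratio of -4.33 (SE 1.13, limma adjusted p = 0.0712). Both were separated between the fractions in all libraries, and each was called in 6 of 16 alternatives. The log2 ratio of *G6pdx* ranged from -2.58 to -1.37 with an adjusted p from 0.0412 to 0.664, and that of *Gstt2* from -5.58 to -3.14 with an adjusted p from 0.0270 to 0.595. Without NP replicate 1, 2 or 3 the calls were lost at ratios of -2.36, -2.43 and -2.33 for *G6pdx* and -4.27, -4.47 and -4.26 for *Gstt2*, and *G6pdx* was also lost without P replicate 1 (-2.23, adjusted p = 0.124). Rescaling, no trend, no filter and a threshold of 0.05 each lost both calls, and a pseudocount of 0.1 lost that of *Gstt2*.

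By role, 1 of 4 glutathione peroxidases tested (*Gpx4*), 1 of 6 peroxiredoxins (*Prdx2*), 1 of 14 glutathione S-transferases (*Gstt2*) and 1 of 7 NADPH-supplying genes (*G6pdx*) were called, all lower in P, where 1.8% of all genes were. None of the 3 genes tested of the superoxide dismutase list, the 7 of the thioredoxin system, the 8 of glutathione synthesis and recycling, the 3 glutaredoxins, the 3 methionine sulfoxide reductases, the 9 of the Nrf2 pathway or the 5 of selenoprotein synthesis was called by limma at the settings above, although single genes of these lists, other than the superoxide dismutases and the thioredoxin system, passed under some alternatives. The thioredoxin system was led in NP by *Txnip*, the thioredoxin-binding inhibitor, at 444, 398 and 328 FPKM in NP and 536, 295 and 308 FPKM in P. The fractions overlapped, with a log2 ratio of -0.08 (SE 0.62, 95% interval -1.36 to 1.20). The glutathione-degrading *Ggt1* led its list at 38.6, 51.6 and 73.9 FPKM in NP and at 5.37, 3.60 and 1.14 FPKM in P, and did not pass the threshold (log2 ratio -3.76, limma adjusted p = 0.113). *Glrx5*, a mitochondrial glutaredoxin, was at 476, 345 and 510 FPKM in NP and at 223, 136 and 98.6 FPKM in P (log2 ratio -1.60, limma adjusted p = 0.263). In each of the other lists the leading gene was also lower in the mean of P without passing the threshold. These were *Sepx1*, a selenium-dependent methionine sulfoxide reductase (log2 ratio -3.93, limma adjusted p = 0.138), *Sqstm1*, the autophagy adaptor that binds the Nrf2 inhibitor Keap1 (log2 ratio -1.39, limma adjusted p = 0.396), and *Eefsec*, the elongation factor for selenocysteine (log2 ratio -3.04, limma adjusted p = 0.128).

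**Figure D5:**
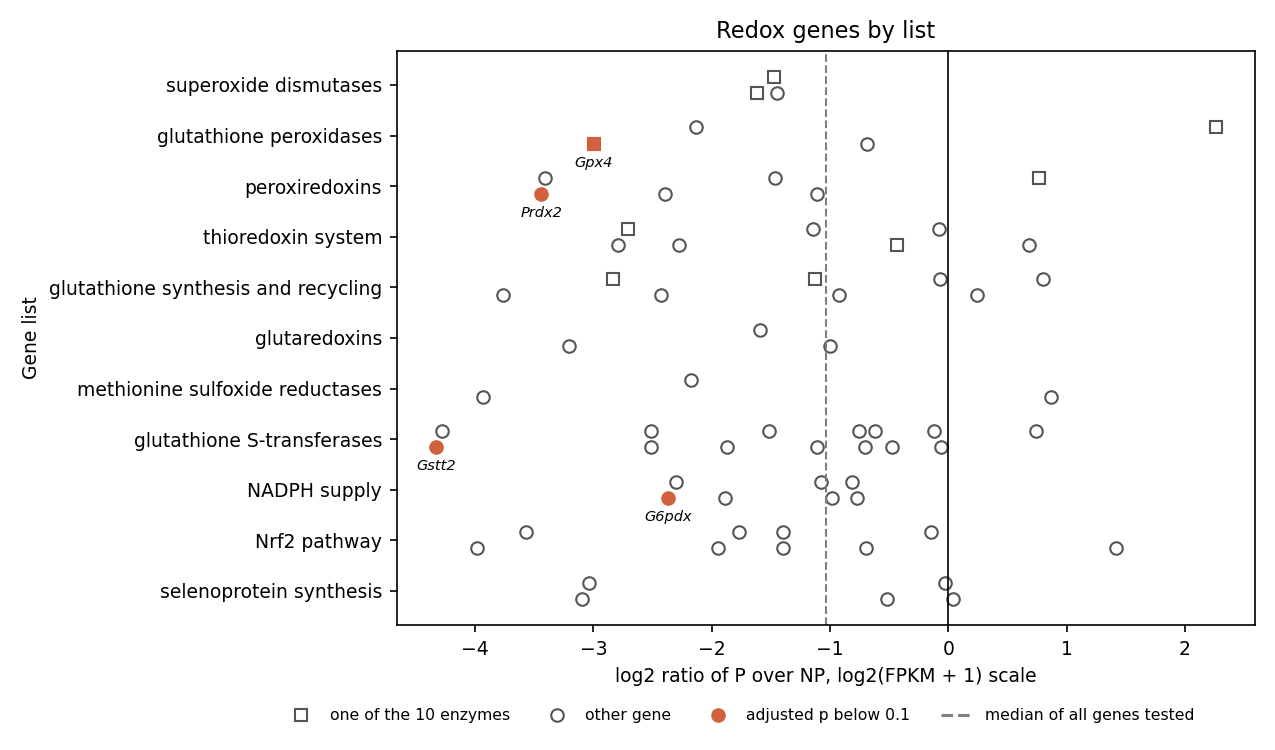
Log2 ratio of P over NP of every tested gene in each redox list; squares are the enzymes described, circles other genes, orange marks genes past the adjusted threshold, and the dashed line is the median of all genes tested, -1.03. The 4 genes called, *Gpx4*, *Prdx2*, *Gstt2* and *G6pdx*, all lie left of the dashed line, and *Gpx1*, at 2.26, lies farthest right.

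Stored oocyte mRNAs are often activated through U-rich cytoplasmic polyadenylation elements in the 3′ UTR, so TTTTAT and TTTTAAT were counted on the sense strand of the annotated 3′ UTRs. *Sod1*, *Gpx1* and *Gpx4*, whose 3′ UTRs have 72, 207 and 221 bases, held neither. *Prdx1* held 1 TTTTAT in 1566 bases, *Txnrd1* held 2 in 1665, *Txn1* held 2 TTTTAAT in 532, and *Cat* held 1 TTTTAT in 907. In the long 3′ UTRs, *Sod2* held 16 elements in 4963 bases, *Gclm* 7 in 4335 and *Gclc* 3 in 1234. The *Sod2* transcript scanned runs past the end of the gene as measured (13018119). Its elements starting at 13018176, 13018778 and 13019588 lie beyond that end. The element of *Prdx1*, the highest of the 10 mRNAs in P, and the one of *Txnrd1* nearest to a transcript end are shown with the element in capitals, from chr4:116699831-116699857 and chr10:82897648-82897674 (plus strand).
Prdx1: tagtgctggTTTTATaagcatggatta
Txnrd1: tccatgtatTTTTATtacaatttttct
They end 977 and 48 bases before the annotated transcript end. Of the 9 enzymes tested, 6 (66.7%) held an element, against 59.4% of 8859 genes tested with a 3′ UTR. Among 3′ UTRs of at most 500 bases it was 0 of 3 enzymes and 25.5% of 2740 genes.

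Near-identical copies could share reads with some of the enzymes. Pseudogene transcripts at 90% identity or more over at least 50% of the coding sequence were found for *Gpx4* (2 copies), *Prdx1* (3), *Sod1* (1) and *Txn1* (1), and also for *Prdx2* (1). The closest copy of *Gpx4*, *Gpx4-ps2*, was 99.6% identical over the aligned part. Only *Gm7204*, a copy of *Prdx1* at 97.5% identity, had a row of its own, at 1.35, 3.50 and 11.5 FPKM in NP and at 0, 0 and 8.61 FPKM in P. Its level was far below that of *Prdx1* in every library. How reads were divided between copies is not given in the sources used here, so the levels of these 5 genes carry that uncertainty.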

How the data were processed

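RNA of NP and P sucrose-gradient fractions was depleted of rRNA, amplified with random and oligo-dT primers and made into Nextera libraries, which keep no strand. The submitters' notes name Trim Galore 0.4.1, FastQC 0.11.5, HISAT2 2.0.5 and GRCm38. The authors deposited 1 table of FPKM per gene, made with Seqmonk. For the annotation release and the counting options, nothing is given in the sources used here.

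The table held 25965 rows. For 58 duplicated symbols the row of highest mean was kept, and no enzyme was duplicated. FPKM was analysed as log2(FPKM + 1) with limma 3.58.1 in R 4.3.3 (trend of the spread with the level, two-sided, Benjamini-Hochberg over 10578 genes, threshold 0.1, mean FPKM above 1 in NP or P, no replicate block), after a test on simulated data. Ratios and their standard errors come from this fit. Relative depth was recovered from the steps of low values, with GENCODE M21 exon lengths for 87.4% of symbols. Between 58.8% and 66.3% of low values per library came out whole within 0.02 reads, so read numbers are estimates, limits cover counting error only, and no count test was run. Sequences are GENCODE M21 transcripts (GRCm38), the longest principal protein-coding transcript per gene, read with Python 3.11.15. Copies were searched with BLAST 2.17.0.

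The 10 enzymes were named always, and from the other lists the genes past the threshold or, failing that, the gene of each list with the highest NP mean. The members and lists were chosen with earlier results of these data known. Alternatives were the pseudocount, the filter, the trend, the replicate block, 3 rescalings (median of ratios, quantile normalization, a common FPKM sum), a threshold of 0.05 and leaving out each library. Leaving out each library in the ratios to *Prdx1* was added after seeing the data.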

Additional observations from a re-analysis of the deposited data

How the results depend on the processing

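The number of genes called, 192 of all genes tested and 1 among the enzymes (*Gpx4*), moved with most choices. It was 69 and 0 at a pseudocount of 0.1, 15 and 0 with no trend, 65 and 0 at an adjusted p of 0.05, and 3 and 0, 4 and 0, and 6 and 0 after median-of-ratios rescaling, quantile normalization and scaling to a common FPKM sum. After these 3 rescalings, 1, 2 and 4 of the genes called were lower in P, and 2 were higher each time. With no filter on low values, limma called 0 genes and 0 enzymes, with 1759 genes at an unadjusted p under 0.05. Leaving out 1 library gave 1 to 331 genes and 0 to 1 enzymes, with *Gpx4* called only without P replicate 1 or 3. *Gpx4* was called in 5 of 16 alternatives, at an adjusted p between 0.0204 and 0.651.

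With the replicate number as a block, 668 genes were called, 663 of them lower in P and including all 192, and *Gpx4* was again the only enzyme called. Deviations of same-numbered NP and P libraries correlated at 0.0634, 0.0991 and 0.116, and those of other numbers at -0.0886 to 0.0208, so every library correlated best with its own number. No source states that the numbers mark a shared gradient. The block changed no other call among the enzymes. Of the other redox genes it called 12 in place of 3, all lower in P, among them *Ggt1*, *Sepx1*, *Eefsec*, *Prdx6*, *Gsta4* and *Glrx3*. Without the block, 5 were called at a mean FPKM above 5 (*Gstm6* and *Ggt1* added), 4 without P replicate 1 (*Sephs2* and *Ggt1* added, *G6pdx* lost) and 6 without P replicate 3 (*Eefsec*, *Ftl1* and *Prdx3* added).

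Over the 9 tested enzymes and all alternatives, 143 values were computed, of which 125 kept direction and side of the threshold, 11 lost the call of *Gpx4* and 7 changed sign. *Txnrd1* was at 0.00048 with a pseudocount of 5, at 0.16, 0.78 and 0.32 after median-of-ratios rescaling, quantile normalization and the common sum, and between -1.65 and 0.88 with a library left out. *Gclm* was at 0.28 after quantile normalization. *Gclm* gave no value at a mean FPKM above 5. Depth limits P replicate 1 most, where 3 reads correspond to 3.28 FPKM for *Gclm* and up to 28.6 FPKM for *Sod1*.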
